A study of Homo sapiens with 36 samples.

Results

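Translation initiation and elongation factors were followed through ribosome profiling and RNA sequencing of human cell transformation models. Members were the gene symbols beginning with EIF1 to EIF6, EEF1 or EEF2, without the eIF2α kinases (EIF2AK), the EIF2C genes and EIF1AY. This gave 58 of 19137 symbols, each represented by the transcript with the highest mean count. Of these, 6 were elongation factors, 33 were subunits of initiation factors and 19 were paralogs or regulators such as EIF4EBP1, EIF5A and EIF6. EIF5AL1 had no count in any library and EIF4E1B was not tested in any of the comparisons reported here.

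The 36 libraries came from 2 cell models. MCF10A-ER-Src cells are breast epithelial cells with a Src oncoprotein joined to the hormone-binding part of the oestrogen receptor. It was given 1 µM 4-hydroxy-tamoxifen for 1, 4 or 24 h, and was set against cells at 0 h and against ethanol at 1, 4 and 24 h. Ethanol and 0 h cells carry the same fusion and are called uninduced. The BJ fibroblast lines are named ELR, EL and EH, and no label gives their long form. In a widely used system with these names, BJ cells hold telomerase, then also the SV40 early region, then also oncogenic HRAS. The labels do not say whether a line was a clone, which promoters drive the introduced genes, or whether replicates came from separate cultures, so p-values measure only the spread between these samples. ER-Src cells gave 7 RNA libraries, 10 footprint libraries made with 100 µg/ml cycloheximide for 90 s and 4 made with 2 µg/ml harringtonine for 5 min. The BJ lines gave 3 RNA libraries (1 per line), 6 cycloheximide and 6 harringtonine libraries (2 per line).

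Initiation brings the small ribosomal subunit, the initiator tRNA and the start codon together. The factor eIF4F (the cap-binding protein EIF4E, the scaffold EIF4G1 and the helicase EIF4A1) recruits the message, eIF3 holds the factors on the small subunit, eIF2 delivers the initiator tRNA, and eIF2B recharges eIF2 with GTP. In elongation, eEF1A delivers each aminoacyl-tRNA, the eEF1B subunits EEF1B2, EEF1D and EEF1G recharge eEF1A, and EEF2 moves the ribosome to the next codon. Messages that begin with a C followed by a run of pyrimidines (terminal oligopyrimidine, or TOP, messages) are known for translation that depends on mTOR. Elongation factors and several eIF3 subunits belong to this class in human cells.

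The first transcribed bases of the members on which the results turn are printed below, because the TOP class is defined there. Each line holds the 10 bases before the annotated RefSeq start and the 20 bases after it (GRCh38.p14), 5′ to 3′ on the gene's strand, and capitals mark the longest run that begins with C and goes on in C or T. EEF1A1, EEF1G, EEF2, EIF2S3 and EIF4B are shown because their footprints changed beyond their RNA after 24 h of tamoxifen, which also holds for EEF1D, whose start is not shown, EIF3F because its footprints fell at 24 h, and EIF4G1 because its footprints were not called there.
EEF1A1: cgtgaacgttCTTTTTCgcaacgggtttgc
EEF1G: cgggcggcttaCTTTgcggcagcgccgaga
EEF2: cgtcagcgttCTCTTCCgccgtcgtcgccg
EIF2S3: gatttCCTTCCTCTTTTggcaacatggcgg
EIF4B: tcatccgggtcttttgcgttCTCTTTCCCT
EIF3F: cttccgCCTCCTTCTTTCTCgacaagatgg
EIF4G1: gcggggagCCggaaatggttgtggactacg
These windows lie at chr6:73521013-73521042 on the minus strand for EEF1A1, chr11:62573872-62573901 on the minus strand for EEF1G and chr19:3985444-3985473 on the minus strand for EEF2. They lie on the plus strand at chrX:24054946-24054975 for EIF2S3, chr12:53006446-53006475 for EIF4B, chr11:7987327-7987356 for EIF3F and chr3:184314596-184314625 for EIF4G1. EEF1A1 and EEF2 had runs of 7 bases that began at the annotated start. EIF4B had 10 bases, EIF2S3 had 12 and EIF3F had 14, while EEF1G had 4 and EIF4G1 had 2. Members not printed did not all follow this split. EIF3D had 11 bases and EIF3K had 9 without a call in 24 h footprints, while EIF2B1 had 2 and was called lower. The runs of EIF2S3 and EIF3F began before the annotated start. That of EIF4B began after it and ran to the window's end. A run of at least 6 bases on the gene's strand stood in 2 of 4 elongation factors, 13 of 27 initiation factor subunits, 6 of 8 eIF3 subunits and 4 of 17 other members with a window in the table. Over all 27305 promoters of the table the share was 23.2%, against 39.6% of the 48 members with a window. Runs were counted anywhere in the window, not only at the annotated start. A run is a description of these letters, and its part in the results was not tested.

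Summed counts per library ran from 2225844 to 3008760 for ER-Src RNA, from 1334866 to 3628073 for ER-Src cycloheximide footprints and from 163092 to 374359 for ER-Src harringtonine footprints. The BJ libraries held 2071883 to 2551358 counts for RNA, 1178012 to 2606344 for cycloheximide and 129175 to 214806 for harringtonine. Levels below are CPM, counts scaled to a common library size with the TMM method, except that marker sums and floors use plain library totals. A call is an adjusted p under 0.05 over all genes tested. The markers of the labelled cell types were present. The 10 epithelial markers summed to 11640 to 21330 CPM in ER-Src footprints made with cycloheximide, and to 14.6 to 79.7 CPM in the BJ ones. The 10 fibroblast markers summed to 44.7 to 73.3 CPM in ER-Src cells. In the BJ lines they summed to 534 to 570 CPM in ELR, 4035 to 4098 CPM in EL and 25160 to 25730 CPM in EH, so these markers moved with the lines; their part in the results below was not tested.

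Short reads cannot always be given to a single gene. Of the 58 members, 33 had at least 90% of their 28-base coding windows without a copy elsewhere in GRCh37, and 14 had under 35%. The unique share was 1.03% for EEF1A1, 12.4% for EEF1B2, 14.02% for EEF1G, 10.7% for EIF4E and 12.6% for EIF4B, against 77.4% for EEF1D and 100% for EEF2. In 50-base windows, the length set for RNA, it was 5.76% for EEF1A1, 25.1% for EEF1B2, 26.6% for EEF1G and 29.8% for EIF4B. For EIF4A2 it was 67.6% at 28 bases and 90.7% at 50 bases. The part of this difference in comparisons of footprints with RNA was not tested. The sources used here do not say how reads with several matches were counted, so the levels of the low-share genes are uncertain. EIF3C and its copy EIF3CL held identical counts in every library.

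The median of the elongation factors stood above that of the initiation factor subunits in every library of both models. The margin was wider in RNA than in footprints. Single members overlapped: in uninduced ER-Src footprints EEF1D had 260 CPM per kilobase and EIF3K had 664. The margin is the log2 ratio of the median count per kilobase of coding sequence over 6 elongation factors to that over 33 initiation subunits. In ER-Src cells it averaged 1.66 ± 0.37 in cycloheximide footprints (SD, n = 10) and 2.90 ± 0.14 in RNA (SD, n = 7), and the values did not overlap. In the BJ lines it averaged 2.37 ± 0.21 in cycloheximide footprints (SD, n = 6) and 2.78 ± 0.08 in RNA (SD, n = 3). Within ER-Src footprints, the 24 h tamoxifen libraries had the lowest margins, 1.01 and 1.19, while the same treatment gave the highest margin in RNA, 3.19. The uninduced footprint libraries lay at 1.87 (0 h), 2.07 (ethanol 1 h), 2.14 (ethanol 4 h) and 1.65 (ethanol 24 h), so ethanol at 24 h was the lowest of the 4. In BJ cycloheximide footprints the margin was 2.59 and 2.61 in ELR, 2.31 and 2.44 in EL and 2.12 and 2.18 in EH, without overlap between lines. ELR was also highest with other summaries, but the order of EL and EH depended on the summary. Without division by length the margin was 2.26 and 2.27 in ELR, 1.68 and 1.66 in EL and 1.77 and 1.78 in EH. With class sums it was −0.87 and −0.83 in ELR, −1.265 and −1.228 in EL and −1.153 and −1.142 in EH. With counts per kilobase summed over each class in place of the median, the 6 elongation factors lay below the 33 initiation subunits. The mean log2 ratio of these sums was −1.61 in ER-Src and −1.08 in BJ cycloheximide libraries.

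**Figure D1:**
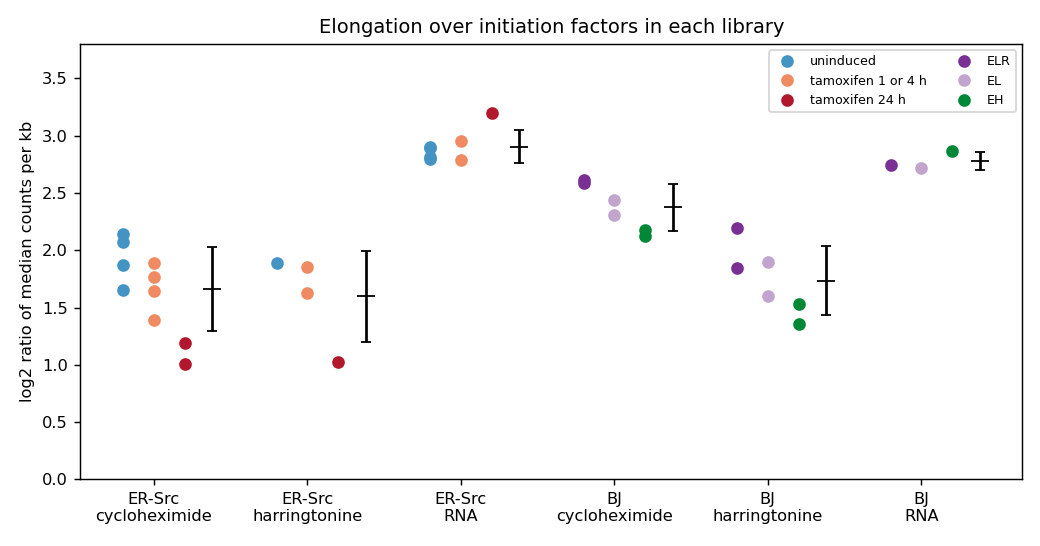
Margin of elongation over initiation factors in each library: the y axis is the log2 ratio of the classes' median counts per kilobase of coding sequence, the x axis groups libraries by cell model and assay, points are libraries coloured by treatment or line, and bars give the mean ± SD over each set. Tamoxifen at 24 h is the lowest point in ER-Src cycloheximide footprints (1.01 and 1.19) and the highest in ER-Src RNA (3.19).

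Footprint levels in this paragraph are from cycloheximide libraries. Among the members with at least 90% unique windows, EEF2 had the highest level per kilobase in the footprints of each BJ line. It had 1373 ± 39.3 CPM per kilobase in ELR, 981 ± 31.3 in EL and 857 ± 11.5 in EH (SD, n = 2 each). In uninduced ER-Src RNA it also led, with 1054 ± 55.1 CPM per kilobase (SD, n = 4). In uninduced ER-Src footprints the eIF3 subunit EIF3K stood at 664 ± 31.7 and EEF2 at 648 ± 123 CPM per kilobase (SD, n = 4 each), a gap smaller than the spread. Subunits of eIF3, which assemble into a single complex, were uneven per kilobase. Over the 8 subunits with unique windows, uninduced ER-Src footprints spanned 7.19-fold, from 92.4 CPM per kilobase for EIF3A to 664 for EIF3K. The span was 5.78-fold in ELR, 5.22-fold in EL and 3.82-fold in EH footprints, each from EIF3A to EIF3I. The 5 subunits of eIF2B spanned less in ELR (3.62-fold), EL (3.25-fold) and uninduced ER-Src footprints (3.04-fold). In EH footprints their span, 3.96-fold, was slightly wider than that of eIF3. The spans set 5 genes beside 8.

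The fibroblast comparison asks how the footprints on these factors differ between lines along the transformation series. In ELR against EH fibroblasts most of the translation factors had more footprints, with elongation factors ahead of initiation subunits. Of 54 members tested, 35 were higher and 4 lower in ELR (edgeR quasi-likelihood test), beside 53.4% of all 9996 genes called, 25.6% higher and 27.8% lower. The median log2 change was 0.48 over the members, 0.75 over the 6 elongation factors and 0.43 over the 33 initiation subunits, beside −0.01 over all genes. In such bulk libraries fewer cells of a kind and less RNA per cell cannot be told apart.

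All elongation factors except EEF1A2 (0.26 ± 0.23, not called) were higher in ELR than in EH. EEF1G, the eEF1B subunit that anchors the exchange complex, had 1877 and 1901 CPM in ELR, 1169 and 1201 CPM in EL and 822 and 876 CPM in EH. The 3 lines did not overlap, and ELR exceeded EH by 1.16 ± 0.04 (log2 ± SE, adjusted p = 4.209e-45). EEF1B2, an exchange subunit, had 1253 and 1225 CPM in ELR, 725 and 681 CPM in EL and 675 and 658 CPM in EH. ELR stood apart from the other lines, at 0.89 ± 0.04 over EH and 0.82 ± 0.04 over EL, while EL over EH, 0.08 ± 0.05, was not called. EEF1D, the other exchange subunit, had 663 and 723 CPM in ELR, 447 and 487 CPM in EL and 385 and 393 CPM in EH, with 0.83 ± 0.06 for ELR over EH. EEF2, the translocase, had 3463 and 3606 CPM in ELR, 2469 and 2583 CPM in EL and 2186 and 2228 CPM in EH. It was thus ordered ELR, EL, EH without overlap (0.68 ± 0.03 for ELR over EH). EEF1A1, which brings aminoacyl-tRNA, had 2060 and 2066 CPM in ELR, 1412 and 1388 CPM in EL and 1556 and 1631 CPM in EH. EL was therefore lowest for EEF1A1, at −0.18 ± 0.04 against EH, while ELR was 0.37 ± 0.03 above EH and 0.56 ± 0.03 above EL.

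**Figure D2:**
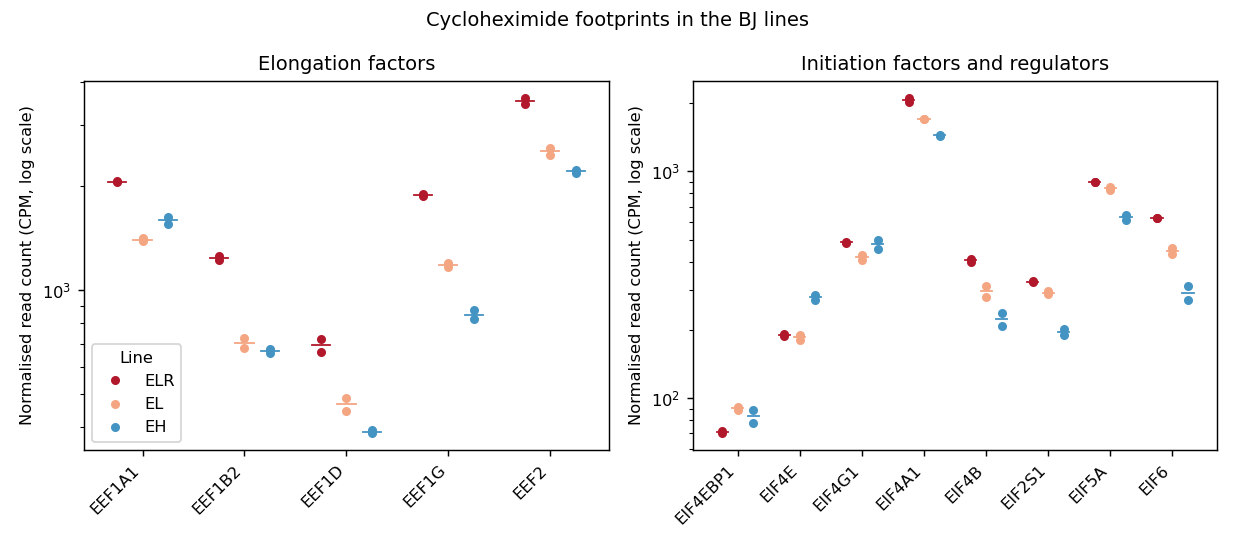
Cycloheximide footprints of elongation factors (left) and of initiation factors and regulators (right) in the BJ lines: points are libraries in CPM on a log axis, lines are the means of 2 libraries, and colours are ELR, EL and EH. ELR is highest for all 5 elongation factors, while EIF4E is highest in EH, at 287 and 272 CPM.

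Among the 13 eIF3 subunits, 11 were higher in ELR than in EH and none lower, from 0.43 for EIF3K to 1.14 for EIF3H. EIF3H had 521 and 518 CPM in ELR, 376 and 373 CPM in EL and 245 and 224 CPM in EH. EIF3A, the large scaffold subunit, was not called (0.08 ± 0.06), nor was EIF3C. All 3 subunits of eIF2 were higher in ELR, led by EIF2S1 (0.74 ± 0.08), the α subunit that stress kinases phosphorylate. Of the 5 eIF2B subunits, EIF2B2 (0.52 ± 0.15) and EIF2B3 (0.86 ± 0.14) were higher and 3 were not called. Within the cap-binding group the members split. EIF4A1 (0.52 ± 0.03) and its cofactor EIF4B (0.87 ± 0.07) were higher, EIF4G1 was at 0.02 ± 0.06, and EIF4G3 (−0.61 ± 0.14) and EIF4H (−0.34 ± 0.11), another EIF4A cofactor, were lower. EIF4E, the cap-binding protein, had 191 and 189 CPM in ELR, 191 and 181 CPM in EL and 287 and 272 CPM in EH. Both lines downstream of EH were thus lower (−0.56 ± 0.08 in ELR and −0.59 ± 0.08 in EL, each against EH) and did not overlap with it. EIF4EBP1, the repressor that binds EIF4E, was at −0.24 ± 0.13 in ELR against EH and was not called.

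Several paralogs and regulators were among the larger changes. EIF2D, which can deliver initiator tRNA without eIF2, had 56.4 and 64.3 CPM in ELR, 40.1 and 48.0 CPM in EL and 23.6 and 25.2 CPM in EH (1.29 ± 0.19 for ELR over EH). EIF6, which keeps ribosomal subunits apart, had 620 and 624 CPM in ELR, 461 and 432 CPM in EL and 311 and 272 CPM in EH (1.09 ± 0.06). The lines were ordered alike for both genes, without overlap. EIF4A3, a helicase of the exon junction complex (0.90 ± 0.07), EEF1E1, a scaffold of the tRNA synthetase complex (0.91 ± 0.12), and EIF5A, which relieves stalled ribosomes (0.52 ± 0.05), were also higher. EIF4G2, an EIF4G relative that lacks the cap-binding part, was slightly lower (−0.16 ± 0.05).

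The steps between the lines differed by class. In EL against EH, 26 of 54 members were higher and 8 lower, beside 41.6% of all genes called (19.1% higher, 22.4% lower), and the elongation median was 0.14 against 0.24 for initiation subunits. EEF1D (0.26 ± 0.06), EEF1G (0.48 ± 0.04) and EEF2 (0.19 ± 0.03) were higher and EEF1A1 lower, while 11 eIF3 subunits were higher and EIF3A lower (−0.16 ± 0.06). In ELR against EL, 32 of 54 were higher and 3 lower, beside 36.3% of all genes (17.5% higher, 18.8% lower), and the elongation median was 0.56 against 0.25 for initiation subunits. In that step 5 elongation factors, 10 eIF3 subunits and EIF5, the eIF2 GTPase activator (0.69 ± 0.07), were higher. EIF4A2, a helicase paralog, had 140 and 147 CPM in ELR, 228 and 196 CPM in EL and 143 and 124 CPM in EH, and so was highest in EL (0.67 ± 0.09 for EL over EH, −0.58 ± 0.08 for ELR over EL). The comparisons share libraries of the same line, and the BJ libraries of a line varied little, with a biological coefficient of variation of 1.8%. With the 13.9% of the ER-Src cycloheximide libraries in its place, the calls of EEF1A1 in ELR against EH, of EEF2 in ELR against EL and of all 4 elongation factors in EL against EH were lost, and member calls dropped to 9 in EL against EH and 6 in ELR against EL.

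**Figure D3:**
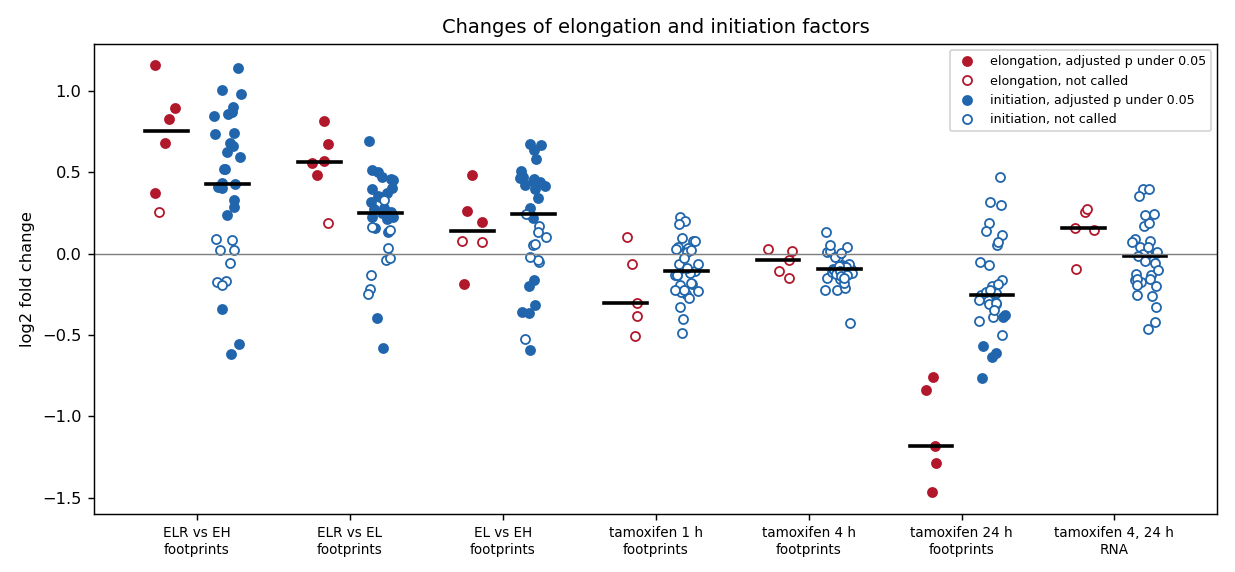
Log2 fold changes of elongation factors (red) and initiation subunits (blue) in 7 comparisons: each point is a gene, filled where the adjusted p was under 0.05, and black lines are class medians. The elongation median is 0.75 in ELR against EH and −1.18 after 24 h of tamoxifen, and lies at 0.16 in late tamoxifen RNA.

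Harringtonine, which stops new initiation complexes while elongating ribosomes run off, gave the same direction for the elongation factors. Of 36 members tested, 13 were higher and 3 lower in ELR against EH, beside 30.8% of 3553 genes called, 13.4% higher and 17.4% lower. All 5 elongation factors tested were higher, from EEF1A1 (0.63 ± 0.15) to EEF1B2 (0.95 ± 0.25). EEF2 had 4435 and 4148 CPM in ELR, 2912 and 2943 CPM in EL and 2469 and 2373 CPM in EH, the same order as under cycloheximide. EIF4E (−0.76 ± 0.28), EIF4G2 (−0.44 ± 0.09) and EIF1, which guards start codon choice (−0.40 ± 0.14), were lower. EEF1A1 and EEF1B2 were not called by DESeq2, nor was EEF1A1 without EH replicate 1.

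In BJ RNA, with 1 library per line and so no replicate check, the elongation factors followed a different order from the footprints. EEF1A1 RNA was 5469 CPM in ELR, 4271 CPM in EL and 5875 CPM in EH, and EEF2 RNA was 2711 CPM in ELR, 1822 CPM in EL and 2033 CPM in EH. All 5 elongation factors at 10 CPM or more were lower in EL than in EH RNA, with a median log2 ratio of −0.31 (pseudocount 1 CPM), and all 5 were higher in ELR than in EL (median 0.36). The 32 initiation subunits had medians of 0.01 and 0.32 in the same ratios. Ribosome loading, the footprint change beyond the RNA change, was then compared as an interaction. In EL against EH, 11 of 54 members were higher and 1 lower, beside 7.02% of all genes (3.97% higher, 3.05% lower), among them EEF1A1 (0.29 ± 0.05), EEF1B2 (0.42 ± 0.07), EEF1D (0.58 ± 0.09), EEF1G (0.53 ± 0.06), EEF2 (0.37 ± 0.05) and EIF4B (0.65 ± 0.09). In ELR against EH, 12 were higher and 3 lower, beside 7.99% of all genes (3.46% higher, 4.53% lower), with EEF1G at 0.84 ± 0.06, EEF1D at 0.79 ± 0.09 and EIF4B at 0.77 ± 0.09. In ELR against EL, 2 were higher (EEF1A1 and EEF1G) and 6 lower, beside 3.18% of all genes (1.08% higher, 2.09% lower), including EIF4EBP1 (−0.72 ± 0.21), EIF5A (−0.39 ± 0.10) and EIF2S2 (−0.42 ± 0.09). With the ER-Src spread 0 members were called in any of these 3 loading comparisons (edgeR likelihood ratio test), with 0, 6 and 0 at an unadjusted p under 0.05 for EL against EH, ELR against EH and ELR against EL, and DESeq2 called 8, 8 and 2. The lower calls depended on scaling: with DESeq2's size factors in edgeR, ELR against EL had 3 higher and 2 lower and ELR against EH had 12 higher and 0 lower, and DESeq2 itself called 0 lower in either.

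The tamoxifen series asks when translation of these factors changes after Src is switched on. Footprints on the elongation factors were lower after 24 h, with a lower median than the initiation subunits, and no member was called at 1 or 4 h. At 1 h, 0 of 54 members were called by edgeR (0.0392% of all genes, 0.0196% higher and 0.0196% lower), with 6 at an unadjusted p under 0.05 and 0 by DESeq2. At 4 h, 0 of 54 were called by edgeR (0.716% of all genes, 0.697% higher and 0.0196% lower), with 1 at an unadjusted p under 0.05 and 0 by DESeq2. At 24 h, 11 of 54 were lower and none higher, beside 15% of all genes called, 8.91% higher and 6.05% lower. The 5 elongation factors tested were all lower, with a median of −1.18, and 6 of 33 initiation subunits were lower, with a class median of −0.25, beside −0.01 over all genes.

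EEF1A1 had 569 and 679 CPM at 24 h of tamoxifen, against 1504 CPM at 0 h and 1803, 1626 and 1151 CPM after ethanol for 1, 4 and 24 h. EEF1B2 had 341 and 422 CPM at 24 h of tamoxifen, against 993 CPM at 0 h and 1321, 1187 and 724 CPM after ethanol. For both genes the tamoxifen libraries lay below every uninduced library, by −1.28 ± 0.16 for EEF1A1 (adjusted p = 1.215e-05) and −1.47 ± 0.24 for EEF1B2 (adjusted p = 0.001445; edgeR). EEF1G had 460 and 533 CPM at 24 h of tamoxifen, against 1035, 1376, 1238 and 854 CPM in the uninduced libraries in the same order. EEF2 had 874 and 993 CPM, against 1603, 2009, 1793 and 1263 CPM. EEF1D had 292 and 305 CPM, against 522, 567, 479 and 455 CPM. None of the 3 overlapped, with −1.18 ± 0.17 for EEF1G, −0.84 ± 0.16 for EEF2 and −0.76 ± 0.13 for EEF1D.

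Ethanol alone at 24 h also had fewer elongation factor footprints than ethanol at 1 h, by −0.65 (log2) for EEF1A1, −0.87 for EEF1B2, −0.69 for EEF1G, −0.67 for EEF2 and −0.32 for EEF1D, with 1 library each and no test. Set against ethanol at 24 h alone, an alternative chosen after seeing the data, EEF1A1 (−0.88), EEF1B2 (−0.92), EEF1D (−0.60), EEF1G (−0.77) and EIF3F (−0.57) were called, while EEF2 (−0.43) was not. The other call of that fit was EEF1A2, which was higher. With replicate 2 libraries only, likewise chosen later, EEF1A1 and EEF1G were called lower and EEF1A2 higher. Leaving out either 24 h tamoxifen library left 7 members called, with the 5 lower elongation factors among them and, without replicate 1, EEF1A2 as a higher call.

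**Figure D4:**
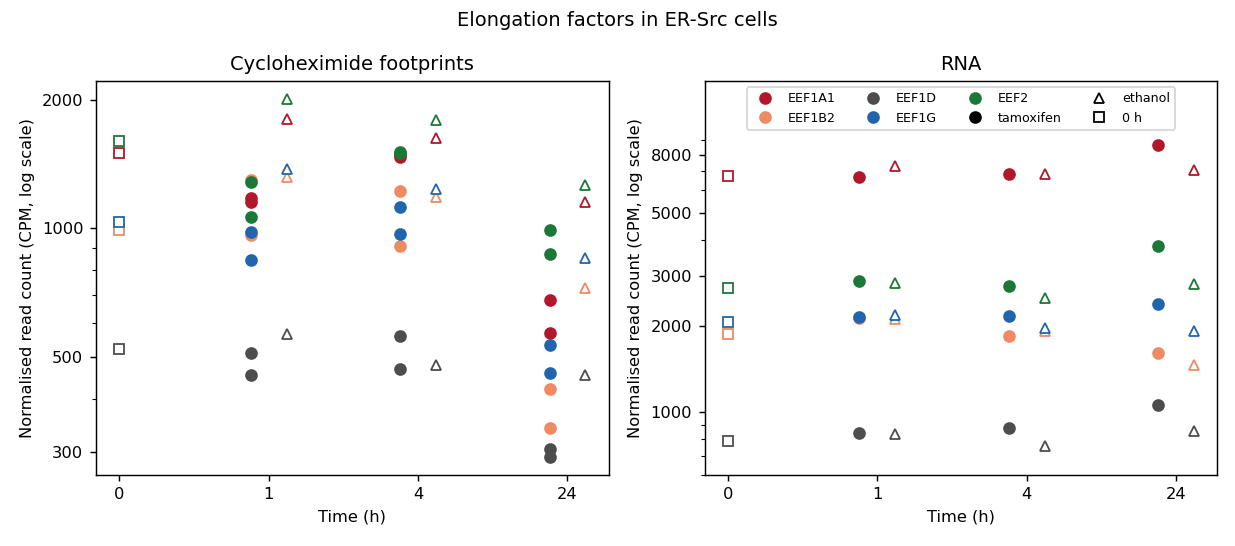
Elongation factors in ER-Src cells over time: cycloheximide footprints (left) and RNA (right) in CPM on log axes, with points for libraries, colours for genes, squares for 0 h, filled circles for tamoxifen and triangles for ethanol. Footprints at 24 h of tamoxifen lie below all others for each gene (EEF1A1 at 569 and 679 CPM), while EEF1A1 RNA at 24 h of tamoxifen is the highest of its series, at 8637 CPM.

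Of the initiation factors, 5 of 13 eIF3 subunits and 1 of 5 eIF2B subunits were lower at 24 h. EIF3F, a regulatory eIF3 subunit, had 149 and 162 CPM at 24 h of tamoxifen, against 271 CPM at 0 h and 278, 279 and 233 CPM after ethanol for 1, 4 and 24 h. The groups did not overlap, and the change was −0.76 ± 0.13 (adjusted p = 0.0003311, edgeR). EIF3L (−0.61 ± 0.15), EIF3M (−0.57 ± 0.14), EIF3H (−0.39 ± 0.12), EIF3E (−0.38 ± 0.12) and EIF2B1 (−0.64 ± 0.17) were also lower, but these 5 calls were all lost without 24 h tamoxifen replicate 1, and those of EIF3H and EIF3E also without the 0 h, the ethanol 1 h or the ethanol 4 h library. No subunit of eIF2 or of the eIF4 factors was called: EIF4G1 was at 0.30 ± 0.13, EIF4E at −0.29 ± 0.12 and the anti-association factor EIF6 at −0.51 ± 0.17. EEF2K, the kinase that inhibits EEF2, was at 0.44 ± 0.19 and EIF4EBP1 at −0.04, neither called. The 6 leukocyte markers summed to 31.9 to 47.6 CPM in the 24 h tamoxifen libraries and 10.9 to 26.2 CPM in uninduced ones, with 5 of the 6 at 0 in the tamoxifen libraries. Epithelial markers summed to 19250 to 21330 CPM at 24 h of tamoxifen and 11640 to 16400 CPM in uninduced libraries, and their part in the result was not tested.

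No fall in RNA was called for the elongation factors. EEF1A1 RNA was 8637 CPM at 24 h of tamoxifen, against 6732 to 7283 CPM in the 4 uninduced libraries. EEF2 RNA was 3804 CPM at 24 h of tamoxifen, against 2514 to 2821 CPM. EIF4B RNA was 2196 CPM, against 1199 to 1694 CPM. These values were above every uninduced library, as were those of EEF1D (1055 CPM, against 758 to 853 CPM) and EEF1G (2393 CPM, against 1923 to 2189 CPM). EEF1B2 RNA was 1611 CPM at 24 h of tamoxifen, against 1458 to 2110 CPM, and so lay below 3 of the 4 uninduced libraries. Tamoxifen at 4 and 24 h, pooled, called 0 of 55 members by edgeR (0.245% of all genes), with 3 at an unadjusted p under 0.05 and 0 by DESeq2. Tested alone, a setting added later, the 24 h library gave 3 calls, with EEF2 at 0.49 and EIF4B at 0.72, and EEF1A1 was not called at 0.31.

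Ribosome loading at 24 h of tamoxifen was lower for 6 of 56 members and higher for none, beside 0.575% of all genes called, 0.018% higher and 0.557% lower. EEF1A1 (−1.62 ± 0.22, adjusted p = 0.0003906), EEF1G (−1.44 ± 0.24, adjusted p = 0.002006), EEF2 (−1.35 ± 0.23, adjusted p = 0.00216) and EEF1D (−1.17 ± 0.19, adjusted p = 0.002006) were 4 of them in the edgeR fit. EIF4B (−0.94 ± 0.22) and EIF2S3, the γ subunit of eIF2 (−0.81 ± 0.18), were the others, and EEF1B2 was at −1.30 without a call. Of the 5 whose starts are printed, EEF1A1 and EEF2 had pyrimidine runs of 7 bases at the annotated start. The runs of EIF2S3 (12 bases) and EIF4B (10 bases) began elsewhere in the window, and EEF1G had 4 bases. The part of the runs in these calls was not tested. RNA at 24 h rests on 1 library, assumed to vary like the other groups. Against ethanol at 24 h alone 2 members were called, EEF1A1 (−1.23) and EEF1G (−1.16), and EIF4B and EIF2S3 lost their calls without 24 h tamoxifen footprint replicate 1, without the 0 h RNA library, without any ethanol 1 h or 4 h library, or without the filter on low counts. DESeq2 called 10 members, EEF1B2 among them.

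Harringtonine footprints in ER-Src cells, 1 library per time, had the same low point for EEF1A1, EEF2 and EEF1G. EEF1B2 is not given here. EEF1A1 had 1313, 1208, 1110 and 678 CPM at 0, 1, 4 and 24 h of tamoxifen, and EEF2 had 3729, 3158, 3294 and 1959 CPM. EEF1G had 425, 392, 497 and 309 CPM, and EEF1D had 441, 361, 436 and 400 CPM. The 24 h value was the lowest for EEF1A1, EEF2 and EEF1G and not for EEF1D, with no replicate check.

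Set against RNA, cycloheximide footprints spread the initiation factors over a wide range. In uninduced ER-Src cells 28 of 56 members had more footprints than RNA counts and 19 fewer, beside 71.8% of all genes called, 36.7% higher and 35.1% lower. In the BJ lines 34 of 54 had more and 14 fewer, beside 79.7% of all genes, 39.7% higher and 40% lower. RNA had 1 library per BJ line, so the BJ errors hold no spread between RNA libraries. With the ER-Src spread 28 BJ members had more and 11 fewer, and 3 elongation factors were called. Members with many footprints per RNA in both models included EIF1 (4.09 ± 0.11 in ER-Src and 3.48 ± 0.05 in BJ cells), EIF3F (3.48 ± 0.14 and 3.42 ± 0.07) and EIF6 (2.81 ± 0.14 and 3.24 ± 0.07). In BJ cells EEF1A2 was highest of all (3.81 ± 0.28), with 27.9 CPM in footprints and 2.28 CPM in RNA, the RNA value resting on 17 counts over 3 libraries. The 6 lowest members in ER-Src cells, all lower in BJ cells too, were EIF4B (−2.42 ± 0.12 and −1.68 ± 0.03), EEF1A1 (−2.10 ± 0.12 and −1.58 ± 0.02), EIF4G1 (−2.06 ± 0.10 and −1.27 ± 0.03), EIF4A2 (−1.96 ± 0.12 and −1.55 ± 0.05), EIF4G2 (−1.87 ± 0.10 and −1.73 ± 0.02) and EIF4G3 (−1.81 ± 0.16 and −1.96 ± 0.06). EIF4G3 was the lowest member in BJ cells. EIF1 had 760 CPM in uninduced ER-Src footprints and 44.6 CPM in RNA, while EIF4B had 240 CPM in footprints and 1285 CPM in RNA. Elongation factors were lower in footprints for 5 of 6 in ER-Src cells and for 3 of 6 in the BJ lines, where EEF2 (0.37 ± 0.02) and EEF1A2 were higher. Across members, the ratio fell with coding length, with a Spearman rank correlation of −0.61 over 56 members in ER-Src and −0.49 over 54 in BJ cells, beside −0.55 and −0.53 over all genes. These points share libraries and counting, and RNA counts carry fragments of the whole transcript, so the ratio between genes is not a translation rate.

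The drugs gave different profiles by coding length. In the BJ lines 10 of 52 members had more harringtonine than cycloheximide footprints and 31 fewer, beside 61% of all genes called (26.1% higher, 34.8% lower), with a median of −0.27 over all genes. In ER-Src cells 10 of 51 had more and 27 fewer, beside 59% of all genes, 29.6% higher and 29.4% lower. The 8 tested members with at least 2400 coding bases were all above 0 in both models, with medians of 1.97 in BJ and 1.65 in ER-Src cells, while 7 of 44 and 8 of 43 shorter ones were. The large scaffolds led: EIF4G3 (2.81 ± 0.12 in BJ and 1.91 ± 0.20 in ER-Src), EIF4G1 (2.31 ± 0.05 and 2.20 ± 0.17), EIF3A (2.29 ± 0.05 and 1.66 ± 0.17) and the subunit-joining GTPase EIF5B (2.06 ± 0.09 and 2.38 ± 0.18). EIF4G1 had a mean of 2134 CPM under harringtonine and 428 CPM under cycloheximide in the BJ lines. Spearman's rank correlation with length was 0.39 over 52 members in BJ and 0.71 over 51 in ER-Src cells, and 0.72 and 0.86 over the members with unique windows, beside 0.67 and 0.81 over all genes. The relation is therefore a feature of these libraries at large, and EEF2, of over 2400 bases, shares it (0.28 ± 0.04 and 1.25 ± 0.14).

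**Figure D5:**
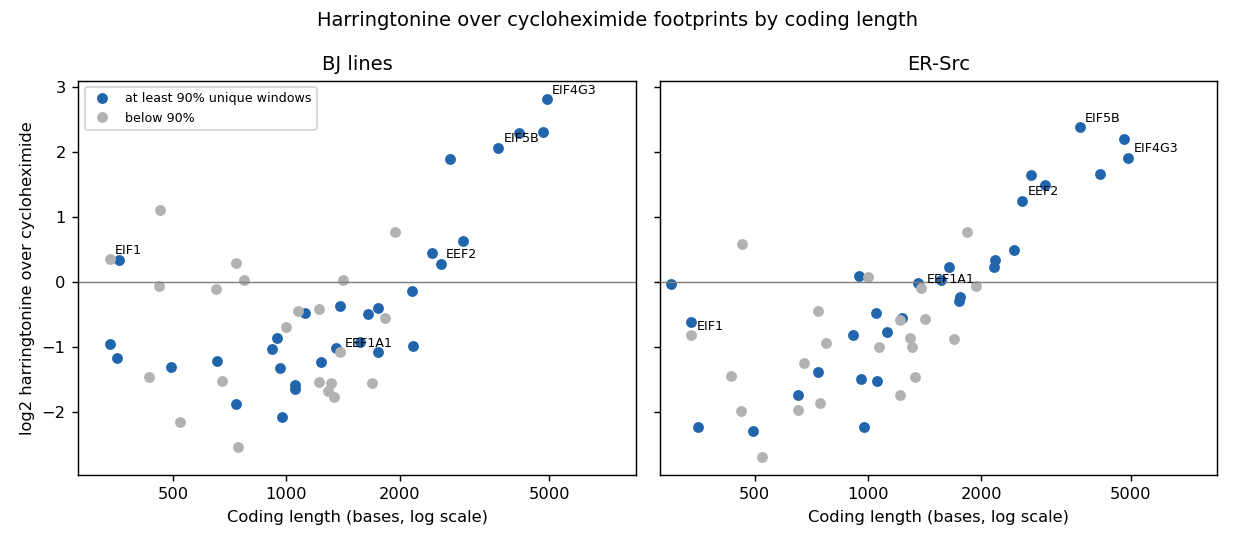
Harringtonine over cycloheximide footprints (y axis, log2) against coding length in bases (x axis, log scale) for the members in BJ (left) and ER-Src cells (right): each point is a gene, blue where at least 90% of coding windows are unique and grey otherwise. All 8 members with at least 2400 bases lie above 0 in both panels.

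Uninduced ER-Src cells were set against EH fibroblasts under cycloheximide, where cell type, medium and line cannot be told apart. Of 55 members, 20 were higher and 9 lower in ER-Src cells, beside 56.9% of all genes called, 28.8% higher and 28.1% lower. EIF3J (1.51 ± 0.16), EIF3E (1.41 ± 0.12), EIF2S3 (1.22 ± 0.12) and EIF1AX, which scans for the start codon (1.08 ± 0.14), were higher, while EEF2 (−0.45 ± 0.15) and EIF4A2 (−0.69 ± 0.16) were lower. The count dropped to 14 or 16 members without either EH library. EEF1A2, the eEF1A form of muscle and brain, was at 0 in all 8 ER-Src cycloheximide libraries without 24 h tamoxifen (0 of 19021246 counts, which allows up to 0.158 CPM). It had 20 counts in the pair of 24 h tamoxifen libraries and 4 in the 24 h tamoxifen RNA library, and 19 to 35 CPM in the BJ footprints. It was singled out after its values were seen.

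Other genes of the translation pathway were taken as a list of 37. It held the poly(A)-binding proteins, mTOR pathway genes, eIF2α kinases, release factors and translational cofactors. In BJ cycloheximide footprints the list was called about as often as all genes when both directions were counted together. Its calls lay more on the higher side, while over all genes lower calls were the more frequent. In ELR against EH 15 of 36 tested were higher and 6 lower, beside 53.4% of all genes called, 25.6% higher and 27.8% lower. The higher ones included the TOP-class genes TPT1 (1.12) and NACA (1.08). The lower ones included PDCD4, an inhibitor of EIF4A (−1.12), and RHEB, which activates mTOR (−1.003). In EL against EH 11 of 36 were higher and 4 lower, beside 41.6% of all genes, 19.1% higher and 22.4% lower. In ELR against EL 10 were higher and 4 lower, beside 36.3% of all genes, 17.5% higher and 18.8% lower. At 24 h of tamoxifen 2 of 36 were higher and 2 lower, beside 15% of all genes called, 8.91% higher and 6.05% lower. The higher ones were PAIP2 (0.48) and EIF2AK2 (0.45), and the lower ones TPT1 (−1.16) and DOHH, a hydroxylase of EIF5A (−0.74). In loading at 24 h, 1 of 36 was lower, TPT1 (−1.51 ± 0.30), beside 0.575% of all genes called, 0.018% higher and 0.557% lower.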

How the data were processed

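RNA libraries were depleted of ribosomal RNA and footprints were RNase I fragments, per the labels' protocols. The authors deposited raw counts per RefSeq transcript for each library; reads were aligned with TopHat to hg19, per the submitters' processing notes. The counting program and its treatment of reads with several matches are not given in the sources used here. The members, lists and tests were chosen with earlier results of these data known. Counts as deposited were fitted over all genes passing a filter (minimum count 10, minimum total 15) with edgeR 4.0.16 in R 4.3.3 (TMM scaling, robust quasi-likelihood test, Benjamini-Hochberg adjustment); DESeq2 1.42.0 was an alternative, and the script was tested on simulated data. Loading was the interaction of assay and condition. The text names all elongation factors, EIF4EBP1, EIF4E, EIF4G1, EIF4A1, EIF4A2, EIF4B, EIF2S1, EIF5A, EIF5A2, EIF6 and EEF2K, and per comparison up to 8 further called members of at least 20 CPM whose libraries did not overlap; other genes named were chosen after their values were seen. Unique windows came from GRCh37 with GENCODE 44 annotation. Floors are 3 counts over the group and cover counting error only.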

Additional observations from a re-analysis of the deposited data

Results flagged for a closer look

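Among 34 sets of 4 uninduced libraries examined, 3 held a library far from the others, where chance gives about 1 in 20. EIF4E had 316 CPM in the 0 h cycloheximide library, against 282 to 283 CPM after ethanol. EIF4B had 201 CPM in the same library, against 238 to 244 CPM. EIF4B RNA was 1694 CPM after 24 h of ethanol, against 1199 to 1236 CPM in the other uninduced libraries.

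Footprints changed by another amount than RNA for several named members, by edgeR's test of the interaction. In EL against EH the log2 difference was 0.29 for EEF1A1, 0.42 for EEF1B2, 0.58 for EEF1D, 0.53 for EEF1G, 0.37 for EEF2, 0.42 for EIF4A2 and 0.65 for EIF4B. In ELR against EL it was 0.20 for EEF1A1, 0.31 for EEF1G, −0.72 for EIF4EBP1, −0.19 for EIF4A1 and −0.39 for EIF5A. In ELR against EH it was 0.50 for EEF1A1, 0.55 for EEF1B2, 0.79 for EEF1D, 0.84 for EEF1G, 0.28 for EEF2, −0.22 for EIF4G1 and 0.77 for EIF4B. At 24 h of tamoxifen it was −1.62 for EEF1A1, −1.17 for EEF1D, −1.44 for EEF1G, −1.35 for EEF2 and −0.94 for EIF4B. Each rests on 1 RNA library per BJ line or on 1 RNA library at 24 h.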

How the results depend on the processing

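In settings other than leaving out a library, 140 single-gene values lost their call, 9 gained one and 1802 did neither. Values near 0 without a call could change sign. The elongation median at 4 h of tamoxifen was −0.04 as reported and 0.05 without the ethanol 1 h footprints. With the ER-Src spread the members called were 9 in EL against EH, 6 in ELR against EL, 10 in ELR against EH under harringtonine and 0 in each BJ loading comparison. DESeq2 called 8 in ELR against EH under harringtonine, 10 in loading at 24 h, 2 in loading of ELR against EL and 8 in loading of ELR against EH, and its size factors in edgeR gave 5 in loading of ELR against EL. Alternatives added after seeing the data gave, with ethanol at 24 h alone, 6 calls in 24 h footprints and 2 in 24 h loading, with replicate 2 libraries only 3 calls in 24 h footprints, and with the 24 h RNA library alone 3 calls. Leaving out 1 library at a time gave 7 to 14 members at 24 h (7 without either tamoxifen library), 0 to 3 in late RNA (3 without tamoxifen at 4 h), 4 to 10 in 24 h loading (10 without the ethanol 24 h footprints), 5 to 6 in loading of ELR against EL (5 without ELR replicate 2), 9 to 14 in loading of ELR against EH (9 without EH replicate 1 or ELR replicate 2) and 14 to 33 in ER-Src against EH (14 and 16 without EH replicates 1 and 2). It gave 27 to 33 in EL against EH, 29 to 31 in ELR against EL, 36 to 38 in ELR against EH and 11 to 13 under harringtonine. Summing each class turned the elongation margin to −1.08 in BJ and −1.61 in ER-Src cycloheximide and to −1.39 in BJ and −1.12 in ER-Src harringtonine libraries, since 6 genes are then set against 33; in RNA it was 0.27 in BJ and 0.49 in ER-Src cells. Without division by length it was 1.90 in BJ cycloheximide, 2.05 in BJ harringtonine and 3.42 in ER-Src RNA. Without EEF1A1 it was 2.60 in BJ and 2.61 in ER-Src RNA, and without EEF1A2 2.94 and 3.14. Among members with unique windows it was 2.39 in BJ harringtonine, 0.98 in ER-Src cycloheximide and 2.20 in ER-Src harringtonine libraries, where the elongation class is only EEF2 and EEF1A2, and EEF1A2 was at 0 in most ER-Src libraries. The cause of the other shifts was not tested. With a replicate block, 34 members were called in EL against EH, 36 in ELR against EL, 39 in ELR against EH, 16 under harringtonine, 0 at 1 and 4 h, 12 at 24 h and 41 between the drugs in BJ cells. Deviations of same-numbered libraries correlated at −0.009 to 0.034 in the BJ lines under each drug and at 0.04 to 0.26 in ER-Src cycloheximide libraries, where 5 of 6 pairs of groups were above 0.1 and 1 was not, so the numbers were not taken to pair the libraries; among uninduced libraries, number 1 is 0 h and number 2 is ethanol. Harringtonine libraries held the fewest counts, and 36 members could be tested there.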
